A study of Mus musculus with 11 samples.

Results

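The MHC class I heavy chains and beta-2 microglobulin were followed in RNA sequencing libraries of sorted CD4+ T cells from the kidney, as the 10 gene symbols H2-K1, H2-D1, H2-K2, H2-Q4, H2-Q6, H2-Q7, H2-T22, H2-T23, H2-M3 and B2m among the 35814 symbols of the count table. They were chosen by symbol, with no threshold on their values, and all 10 passed the expression filter of every comparison. All libraries came from kidneys of C57BL/6 mice on day 2 after ischemia-reperfusion injury (IRI), and no sham library was analysed here. The CD4cre group (n = 3, genotype WT in the labels) carries a Cre recombinase under the CD4 promoter and no floxed gene, the CD4IKK1Δ group (n = 5) carries this Cre with a floxed Chuk gene, which encodes the kinase IKK1, and the CD4NIKΔ group (n = 3) carries it with a floxed Map3k14 gene, which encodes the kinase NIK. The mice were young adult males, each library is labelled as a biological replicate, and the CD4 promoter is also active in precursors of CD8+ T cells, so that the deletion is not restricted to CD4+ cells.

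Class I molecules present peptides from inside the cell to CD8+ T cells and natural killer cells. A heavy chain reaches the cell surface only with the small light chain encoded by B2m, after peptides cut by the proteasome have been carried into the endoplasmic reticulum by the transporter TAP and loaded with the help of tapasin. Nearly all nucleated cells express class I genes, with high levels in lymphocytes and low levels in neurons, and interferons and NFκB raise their transcription through elements close to the start site, together with the transactivator NLRC5. H2-K1 and H2-D1 encode the classical heavy chains of C57BL/6 mice. H2-Q6 and H2-Q7 encode Qa-2 type chains, H2-T23 encodes Qa-1, a ligand of inhibitory receptors of natural killer cells, H2-T22 is recognised by some gamma delta T cells, and H2-M3 presents formylated peptides.

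The 9 heavy chain genes lie on chromosome 17 in the annotation used here (GRCm39), from H2-K2 and H2-K1 at one end (H2-K1 at 34214987 to 34219321, minus strand) over H2-D1 (35481691 to 35486475, plus strand) to H2-M3 at the other (37581106 to 37585384, plus strand). B2m lies alone on chromosome 2 (121977957 to 121983594, plus strand). H2-K2 is annotated as a transcribed unprocessed pseudogene and, under a second gene identifier, as a long noncoding RNA, and the other 9 members are annotated as protein coding. The heavy chain genes are similar in sequence, which bears on how reads are divided between them. Of all stretches of 31 bases in the canonical transcript, the share found as well in another gene was 61.3% for H2-T22 (54.1% in H2-T10 alone), 53.7% for H2-Q7, 51.2% for H2-Q6, 49.2% for H2-T23, 43.9% for H2-Q4, 28.5% for H2-D1, 26.0% or 18.0% for the pseudogene and the noncoding RNA identifier of H2-K2 (most often with H2-D1) and 23.5% for H2-K1, and it was 4.60% for H2-M3 and 0% for B2m. Identical stretches of 150 bases made up at most 11.6% of a transcript (H2-Q7). The partner with most shared stretches of 31 bases was H2-Q5 for H2-Q7 (31.8%), H2-Q4 for H2-Q6 (24%), H2-Q6 for H2-Q4 (17.0%) and H2-T11-ps for H2-T23 (25.3%). At 150 bases H2-Q7 shared most with H2-Q6 (8.6%). The levels of H2-Q4, H2-Q6, H2-Q7, H2-T22 and H2-T23 apart from these relatives and H2-T10 are therefore uncertain, whereas B2m and H2-M3 are hardly touched.

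The regions before the start sites of the members are shown, where the known class I elements lie. Whether these elements bear on how the members varied across the libraries was not tested. Of the 10 members, 9 had an entry among 27025 promoters of the RefSeq table (GRCm38.p6), all but H2-K2, and the 250 bases before the start site were searched on both strands. The last 200 of these bases are given for the classical chains, for the nonclassical chains H2-T23 and H2-M3 and for B2m, with capitals marking matches to the NFκB consensus and to the core of the interferon-stimulated response element:
H2-K1 (chr17:34000348-34000547, minus strand): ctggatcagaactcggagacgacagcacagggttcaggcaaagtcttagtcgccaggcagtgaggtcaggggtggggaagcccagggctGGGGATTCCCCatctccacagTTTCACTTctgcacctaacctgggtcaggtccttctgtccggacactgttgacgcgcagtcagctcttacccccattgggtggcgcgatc
H2-D1 (chr17:35262894-35263093, plus strand): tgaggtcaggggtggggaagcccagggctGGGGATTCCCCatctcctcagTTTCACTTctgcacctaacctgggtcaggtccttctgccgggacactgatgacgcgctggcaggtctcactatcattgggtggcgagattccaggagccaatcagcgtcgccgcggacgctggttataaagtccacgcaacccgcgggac
H2-T23 (chr17:36032702-36032901, minus strand): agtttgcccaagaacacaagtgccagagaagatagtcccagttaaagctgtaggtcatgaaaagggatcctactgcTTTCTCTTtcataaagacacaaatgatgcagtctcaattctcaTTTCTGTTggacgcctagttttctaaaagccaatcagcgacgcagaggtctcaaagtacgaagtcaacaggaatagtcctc
H2-M3 (chr17:37270034-37270233, plus strand): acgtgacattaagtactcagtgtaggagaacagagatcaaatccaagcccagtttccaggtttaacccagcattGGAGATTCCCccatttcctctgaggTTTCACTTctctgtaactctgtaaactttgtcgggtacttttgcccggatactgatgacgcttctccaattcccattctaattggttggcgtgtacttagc
B2m (chr2:122147487-122147686, plus strand): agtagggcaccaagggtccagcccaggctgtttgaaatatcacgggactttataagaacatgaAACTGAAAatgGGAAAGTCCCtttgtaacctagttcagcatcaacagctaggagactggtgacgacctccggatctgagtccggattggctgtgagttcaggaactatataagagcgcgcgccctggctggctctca
The classical chains carry the same block, in which the enhancer A core GGGGATTCCC, taken as the first NFκB consensus match of H2-K1, is followed by the interferon element TTTCACTT, which start 111 and 90 bases before the start site in H2-K1 and 171 and 150 bases before it in H2-D1. This core was found in 4 of the 9 members (H2-K1, H2-D1, H2-Q6 and H2-Q7), and in 0.0814% of all promoters. The NFκB consensus, of which the enhancer A core is 1 form, was found in 8 of the 9 members, all but H2-T23, and in 7.01% of all promoters. B2m holds it once, 126 bases before its start. The wider core TTTCNNTT was found in all 9 members and in 21.6% of all promoters. Its class I form TTTCACTT, likewise taken as the first match of H2-K1, was found in 7 of 9, all but H2-T23 and B2m. It was found in 1.44% of all promoters. H2-K1 thus holds this form and the enhancer A core by construction, and the heavy chain genes are related, so these counts are not independent. The letters TGACG of the cyclic AMP response element were found in 7 of 9 members (17.9% of all promoters), and the inverted CCAAT box ATTGG in all 9 (34.5%). A match describes the letters of these windows and no binding was measured.

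Library totals ran from 15751632 to 25737046 estimated counts, so that 3 counts correspond to 0.115 to 0.212 CPM (counts scaled to a common library size with TMM factors), a floor that covers counting error only. Counts of the targeted genes overlapped between CD4cre libraries and the libraries labelled as their knockouts. Chuk had 325 to 683 counts in CD4cre libraries and 258 to 588 counts in libraries labelled CD4IKK1Δ (22.04 ± 9.69 CPM and 20.4 ± 4.52 CPM, SD, n = 3 and 5), and Map3k14 had 294 to 506 counts in CD4cre libraries and 232 to 626 counts in libraries labelled CD4NIKΔ (17.9 ± 2.77 CPM and 22.5 ± 9.06 CPM, SD, n = 3 each). Map3k14 was lowest in libraries labelled CD4IKK1Δ, with 29 to 186 counts (5.97 ± 2.81 CPM, SD, n = 5), and did not overlap with CD4cre libraries there. These values are summed over all transcripts of a gene and do not resolve floxed exons, so that groups are named here by their labels. T cell transcripts differed widely between libraries. T cell receptor constant-region transcripts had 12558 to 35820 counts in CD4cre libraries and 60124 to 111648 counts in libraries labelled CD4NIKΔ. In libraries labelled CD4IKK1Δ they had 41 and 868 counts in replicates 1 and 2 and 5277 to 11413 counts in the other 3. All 15 Pan T markers were detected in every CD4cre library and in every library labelled CD4NIKΔ, whereas Cd3g and Cd247 were at 0 in at least 1 library labelled CD4IKK1Δ. Of the 8 neuronal markers, 7 were in the table and none of these was at 0 in any library, with summed levels of 2514 to 2908 CPM in CD4cre libraries, 3209 to 3872 CPM in libraries labelled CD4IKK1Δ and 835 to 1738 CPM in libraries labelled CD4NIKΔ.

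In CD4cre mice, class I transcripts were dominated by H2-D1 and B2m. Per kilobase of canonical transcript, the mean level was 1042 CPM per kb for H2-D1, 815 for B2m, 358 for H2-K1, 191 for H2-Q6, 158 for H2-T23, 96.3 for H2-Q7, 36.7 for H2-T22, 32.0 for H2-K2, 21.5 for H2-M3 and 6.71 for H2-Q4. The ranges over the 3 libraries overlapped between H2-D1 and B2m, B2m and H2-K1, H2-Q6 and H2-T23, H2-Q6 and H2-Q7, H2-T22 and H2-K2, and H2-K2 and H2-M3. Within each of the 3 libraries, however, the order was the same as that of the means, apart from H2-Q6 and H2-T23 and from H2-T22 and H2-K2, which kept it in 2 of 3 libraries. H2-K2 was placed here by the 1677 bases of its noncoding RNA identifier, and by the 1052 bases of its pseudogene identifier, an alternative added after seeing the data, it had 51.1 CPM per kb, over H2-T22 in 3 of 3 libraries. In libraries labelled CD4NIKΔ, B2m came first with 7363 ± 3872 CPM per kb, before H2-D1 with 3581 ± 644 CPM per kb (SD, n = 3 each), in this order in 3 of 3 libraries, although their ranges overlapped. In libraries labelled CD4IKK1Δ, B2m had 244 ± 93.8 and H2-D1 had 164 ± 139 CPM per kb (SD, n = 5 each), with B2m over H2-D1 in 3 of 5 libraries. H2-Q4 had the lowest mean in all 3 groups, but H2-K2 was over it in 3 or 4 of 5 libraries labelled CD4IKK1Δ, by the longer and the shorter length of H2-K2. The 10 members together took 0.329% to 0.631% of all counts in CD4cre libraries, 0.0227% to 0.153% in libraries labelled CD4IKK1Δ and 1.32% to 2.29% in libraries labelled CD4NIKΔ, and these ranges did not overlap.

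**Figure D1:**
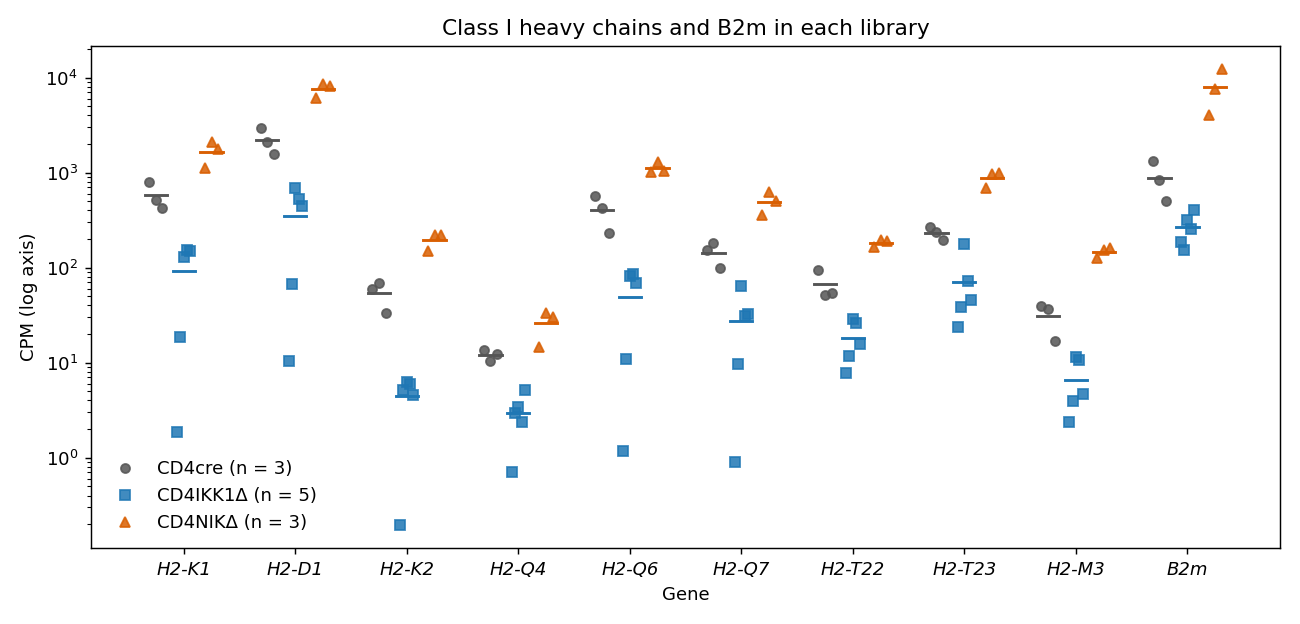
CPM of each class I member in each of the 11 libraries on a log axis, by label of the group. Points are libraries and short lines are group means, and for every member all CD4IKK1Δ points lie under all CD4cre points and all CD4NIKΔ points lie over them.

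The first comparison asked how class I transcripts differed where the kinase IKK1 was targeted. The mean of all 10 members was lower with the CD4IKK1Δ label than in CD4cre mice, and for all 10 the highest CD4IKK1Δ library stayed under the lowest CD4cre library, which held for 8.44% of the 15653 genes tested. None of the 10 passed in edgeR's quasi-likelihood test (FDR threshold 0.05), where 0% of all genes did, while 2592 genes, or 16.6%, had an unadjusted p under 0.05. The log2 fold changes of the members lay between −3.60 and −1.71 with a median of −2.30, beside a median of 0.02 over all genes tested.

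B2m, the shared light chain, had 1322, 833 and 502 CPM in the CD4cre libraries and 186, 155, 320.0, 256 and 406 CPM in the libraries labelled CD4IKK1Δ. The groups did not overlap, but replicate 5 labelled CD4IKK1Δ came close to the lowest control. The log2 fold change was −1.74 (SE 0.39, FDR 0.113). H2-D1, the classical heavy chain of the highest level, had 2924, 2124 and 1568 CPM in CD4cre libraries and 10.3, 68.0, 686, 524 and 446 CPM in libraries labelled CD4IKK1Δ. Replicates 1 and 2, which were also lowest in T cell receptor transcripts, were far under the other 3 libraries of their group. Its log2 fold change was −2.67 (SE 1.13, FDR 0.309). H2-K1, the other classical chain, had 801, 509 and 429 CPM in CD4cre libraries and 1.87, 18.5, 131, 154 and 151 CPM in libraries labelled CD4IKK1Δ, with the same libraries at the bottom and a log2 fold change of −2.67 (SE 1.15, FDR 0.314).

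H2-K2, the pseudogene beside H2-K1, had the largest difference, with 58.9, 69.3 and 33.1 CPM in CD4cre libraries and 0.194, 5.18, 6.22, 5.96 and 4.60 CPM in libraries labelled CD4IKK1Δ. Replicate 1 held 3 counts of it, which is at the floor. The log2 fold change was −3.60 (SE 0.72, FDR 0.0898), the lowest FDR of the members together with that of H2-T22. H2-T23, the Qa-1 gene, had 267, 236 and 194 CPM against 23.8, 38.6, 176, 73.0 and 45.3 CPM. Here replicate 3 labelled CD4IKK1Δ was close to the controls, and the log2 fold change was −1.71 (SE 0.61, FDR 0.243), or −2.36 (SE 0.33, FDR 0.0614) without this library. H2-T22, the ligand of gamma delta T cells, had 93.8, 51.0 and 54.7 CPM against 7.82, 11.7, 28.5, 26.3 and 15.8 CPM, a log2 fold change of −1.88 (SE 0.40, FDR 0.0898), and H2-M3 had 39.4, 36.7 and 16.9 CPM against 2.39, 3.93, 11.4, 10.7 and 4.73 CPM, a log2 fold change of −2.23 (SE 0.51, FDR 0.0938). Both varied less within the CD4IKK1Δ group than the classical chains did. The Qa-2 type gene H2-Q6 had 565, 424 and 231 CPM against 1.16, 11.0, 82.3, 85.7 and 68.2 CPM, and H2-Q7 had 154, 180.3 and 98.4 CPM against 0.905, 9.58, 64.9, 31.1 and 32.2 CPM. Their log2 fold changes were −3.03 (SE 1.13) and −2.38 (SE 1.01), and that of H2-Q4, which had 10.4 to 13.5 CPM in CD4cre libraries and 0.711 to 5.14 CPM in libraries labelled CD4IKK1Δ, was −2.04 (SE 0.55), with an FDR of 0.126 to 0.306 for these 3 genes.

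With DESeq2 on the same 8 libraries, 5 members were called (H2-K2, H2-Q4, H2-T22, H2-M3 and B2m, all lower, with adjusted p-values from 7.63e-06 to 0.00653), beside 8.75% of all genes. On simulated counts of this comparison DESeq2 made 51 false calls and edgeR 2. DESeq2 on all 11 libraries called 9 (all but H2-Q7, beside 4.87% of all genes), edgeR on all 11 libraries called 3 (0.798%), and edgeR with at least 10 counts in every library called 2 (2.07%). Without replicate 1 labelled CD4IKK1Δ edgeR called H2-K2 alone (log2 fold change −3.29, FDR 0.0156), beside 0.0259% of all genes. Without replicates 1 and 2, an alternative chosen after seeing the data, all 10 log2 fold changes stayed negative (median −1.78) and edgeR called H2-K1, H2-K2 and H2-Q6 (beside 0.245% of all genes). In a bulk sample, fewer T cells and less class I RNA in each cell cannot be told apart. The 15 Pan T markers had a median log2 fold change of −2.04 in the same comparison, all 15 with a lower mean and none past the threshold. With the mean log2 CPM of these markers as a covariate, the median of the members was −0.86, from −2.13 for H2-K2 to −0.23 for H2-K1. This covariate was at most 5.30 in libraries labelled CD4IKK1Δ and at least 5.82 in CD4cre libraries. It therefore cannot be told apart from the genotype in this fit. When the libraries were scaled to these markers, again after seeing the data, the median of all genes moved to 5.25 and that of the members to 0.80, with 5 members on either side of 0, and scaled to Ptprc, the gene of the leukocyte marker CD45, these medians were 2.20 and −0.59.

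The second comparison asked the same question for the kinase NIK. Of the 10 members, 9 rose in libraries labelled CD4NIKΔ against CD4cre libraries in edgeR's quasi-likelihood test (FDR threshold 0.05), against a background of 12.1% of 15209 genes called higher. For all 10, every library labelled CD4NIKΔ was higher than every CD4cre library, as for 22.9% of all genes. The median log2 fold change of the members was 1.76, beside −0.02 over all genes tested.

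B2m rose most, with 3998, 7610.2 and 12380.3 CPM in libraries labelled CD4NIKΔ against 502 to 1322 CPM in CD4cre libraries. The 3 libraries spanned a 3.10-fold range and all were over the highest control. The log2 fold change was 3.16 (SE 0.49, FDR 0.00733), or 8.94-fold. Among the nonclassical chains, H2-M3 rose by a log2 fold change of 2.24 (SE 0.32, FDR 0.00568), with 126, 155 and 162 CPM against 16.9 to 39.4 CPM. H2-T23 rose by 1.90 (SE 0.22, FDR 0.00276), with 684, 959 and 991 CPM against 194 to 267 CPM, and these were the members with the smallest FDR. H2-T22 rose by 1.45 (SE 0.26, FDR 0.0114), with 165, 193 and 191 CPM against 51.0 to 93.8 CPM.

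The classical chain H2-D1 had 6029, 8579 and 8137 CPM in libraries labelled CD4NIKΔ, a log2 fold change of 1.77 (SE 0.27, FDR 0.00752). H2-K1 had 1105, 2112 and 1777 CPM, where replicate 1 was not far over the highest control of 801 CPM, and its log2 fold change was 1.51 (SE 0.31, FDR 0.0170). H2-K2, H2-Q7 and H2-Q6 rose by 1.86, 1.75 and 1.44 on the log2 scale (SE 0.28 to 0.31, FDR 0.00817 to 0.0193). H2-Q4 was the only member that did not pass, with 14.7, 33.7 and 30.6 CPM against 13.5, 10.4 and 12.3 CPM (log2 fold change 1.10, SE 0.36, FDR 0.0614).

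**Figure D2:**
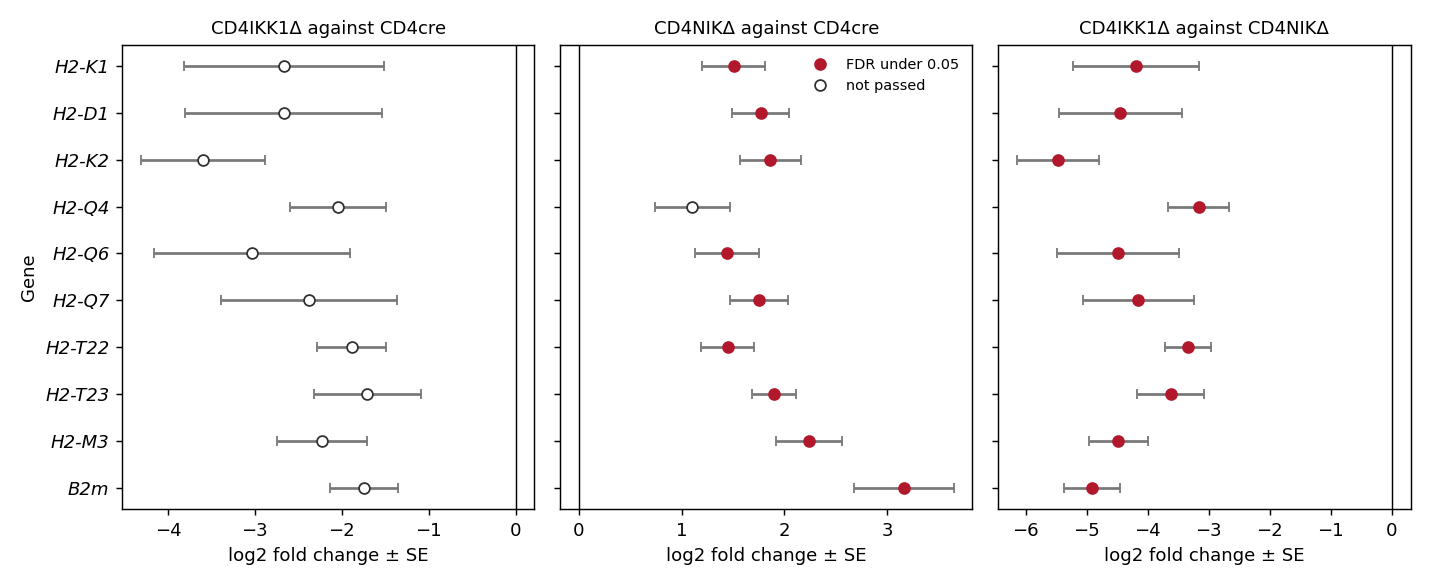
Log2 fold changes of the 10 members in the 3 comparisons, with standard errors as bars. Filled points passed the FDR threshold of 0.05 in edgeR's test, which were 0 members in the left panel, 9 in the middle panel and 10 in the right panel, and the axis ranges differ between panels.

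H2-K1 and H2-Q6 lost their calls when any of several libraries was left out, at log2 fold changes of 1.33 to 1.48 and 1.36 to 1.51. H2-K1 did not pass without CD4cre replicate 2 or 3 or CD4NIKΔ replicate 2 or 3 (FDR 0.0589 to 0.0657), H2-Q6 did not pass without CD4cre replicate 2 or CD4NIKΔ replicate 2 or 3 (FDR 0.0563 to 0.0686), and H2-Q4 passed without CD4NIKΔ replicate 1 (log2 fold change 1.41, FDR 0.0116). T cell transcripts rose as well. The Pan T score, which is the mean log2 CPM of the 15 markers, was 5.82 to 6.63 in CD4cre libraries and 7.88 to 8.56 in libraries labelled CD4NIKΔ, and 14 of the 15 Pan T markers rose, beside 12.1% of all genes called higher, with a median log2 fold change of 2.11. Of the neuronal markers, 6 of 7 fell (median −1.19, beside 8.97% of all genes called lower). With the Pan T score as a covariate, none of the members passed, as was the case for 0% of all genes, and 5 members were under 0. Since this score did not overlap between the groups, it cannot be told apart from the genotype in this fit. Scaled to the Pan T markers, after seeing the data, the members had a median of −0.41 beside −2.24 over all genes, H2-Q4 was called lower (70.8% of all genes called), and only B2m (0.98, FDR 0.0525) and H2-M3 (0.12) stayed over 0. Scaled to Ptprc, H2-Q4 was again the member called, lower, beside 73.8% of all genes. DESeq2 called all 10 members on the same 6 libraries (30.4% of all genes) and 5 on all 11 libraries (29.7%), where edgeR called 3 (18.6%).

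The third comparison tested the difference between the libraries labelled CD4IKK1Δ and CD4NIKΔ directly, in 1 fit of all 11 libraries. With the CD4IKK1Δ label all 10 members had lower levels than with the CD4NIKΔ label at an FDR under 0.05, against a background of 22% of 16546 genes called lower. For all 10 the groups did not overlap, as for 24.4% of all genes in this direction. The log2 fold changes lay between −5.47 and −3.16 with a median of −4.32, beside 0.06 over all genes tested.

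H2-K2 had 0.194 to 6.22 CPM against 151, 219.8 and 221.6 CPM, a log2 fold change of −5.47 (SE 0.67, FDR 0.000209). B2m, with 155 to 406 CPM against 3998 to 12380.3 CPM, had −4.92 (SE 0.46, FDR 8.04e-05), a 30.2-fold difference. H2-Q6, H2-M3, H2-D1, H2-K1 and H2-Q7 had log2 fold changes of −4.49, −4.48, −4.45, −4.19 and −4.15, with an SE of 0.48 for H2-M3 and of 0.91 to 1.03 for the other 4. The smallest differences were those of H2-T23 with −3.62 (SE 0.55), H2-T22 with −3.34 (SE 0.37) and H2-Q4 with −3.16 (SE 0.50). All 10 members passed in each of the 11 fits that left out 1 library, while 22% of all genes were called lower in the fit of all 11. H2-T23 and H2-Q7 moved most without CD4IKK1Δ replicate 3, to −4.28 and −4.73. The 15 Pan T markers had a median of −4.07, and 14 of them fell, beside 22% of all genes called lower, while neuronal markers were higher in 7 of 7, beside 20.2% of all genes called higher. With the Pan T score as a covariate, 3 members passed, beside 4.44% of all genes, which were B2m (−3.86, FDR 0.0200), H2-M3 (−2.70, FDR 0.0312) and H2-T22 (−1.84, FDR 0.0342). The score was at most 5.30 with the CD4IKK1Δ label and at least 7.88 with the CD4NIKΔ label. Here too it cannot be told apart from the genotype. Scaled to the Pan T markers, after seeing the data, none did, while 86.6% of all genes were called, and the same held scaled to Ptprc, where 83.7% were called.

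The members did not vary alike within the libraries labelled CD4IKK1Δ. Between the lowest and the highest of these 5 libraries, the classical chains H2-K1 and H2-D1 differed 82.2-fold and 66.4-fold, and H2-Q6 and H2-Q7 differed 73.7-fold and 71.7-fold. H2-T23, H2-Q4, H2-M3, H2-T22 and B2m differed 7.37-fold, 7.23-fold, 4.75-fold, 3.65-fold and 2.62-fold, and H2-K2 differed 32.1-fold. Replicate 1 was the lowest library for all of them except B2m. Without it, H2-K1, H2-D1, H2-Q6 and H2-Q7 differed 8.33-fold, 10.08-fold, 7.79-fold and 6.77-fold, H2-T23 4.56-fold, and H2-K2, H2-Q4, H2-T22, H2-M3 and B2m 1.35-fold to 2.90-fold. In the other groups all 10 members stayed within a 3.10-fold range. The make-up of the heavy chain transcripts also differed in the 2 libraries with the fewest T cell receptor counts. H2-D1 made up 57.4% to 62.5% of the summed heavy chain CPM in 9 libraries, but 21.0% and 40.2% in replicates 1 and 2 labelled CD4IKK1Δ. H2-T22, H2-T23 and H2-M3 together made up 8.14% to 10.09% in CD4cre libraries and 9.23% to 10.3% in libraries labelled CD4NIKΔ, but 69.2%, 32.0%, 18.1%, 12.0% and 8.51% in libraries labelled CD4IKK1Δ. H2-T23 alone made up 48.4% in replicate 1. At this depth replicate 1 still held 369 counts of H2-T23 and 2879 counts of B2m, beside 29 counts of H2-K1 and 160 counts of H2-D1.

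**Figure D3:**
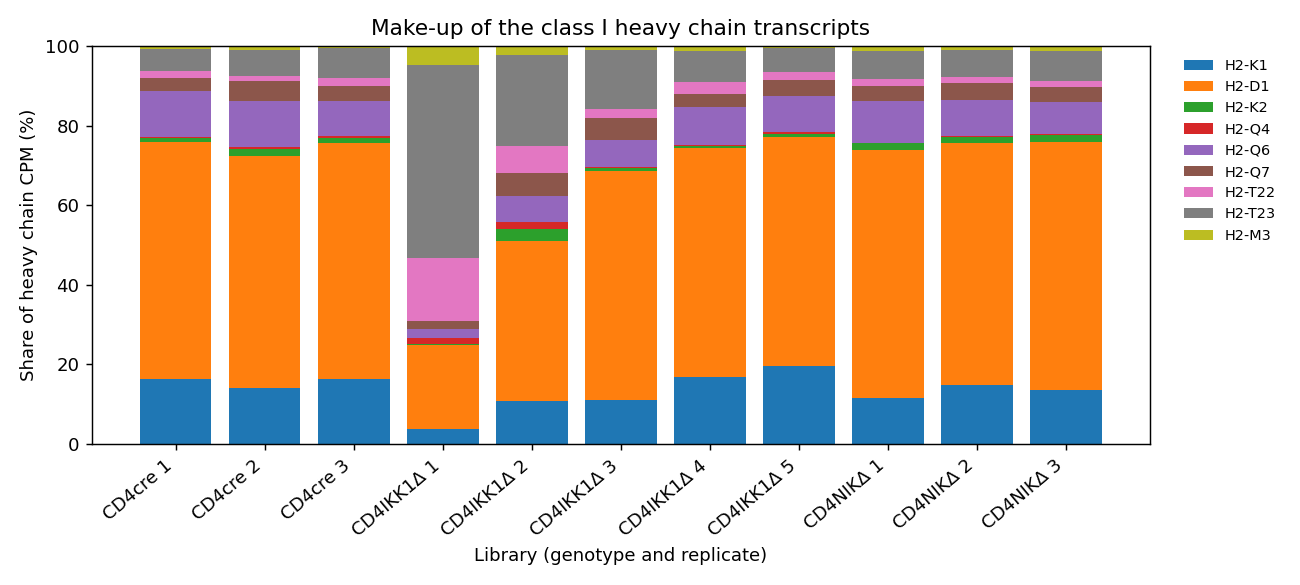
Share of each heavy chain gene in the summed heavy chain CPM of each library, in percent, with 1 bar per library. H2-D1 holds 57.4% to 62.5% of 9 bars and 21.0% and 40.2% of the bars of CD4IKK1Δ replicates 1 and 2, where H2-T23 and H2-T22 widen.

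The balance of light and heavy chains was described as the ratio of B2m CPM to the summed heavy chain CPM. It was 0.269, 0.229 and 0.190 in CD4cre libraries, 3.78, 0.914, 0.269, 0.280 and 0.526 in libraries labelled CD4IKK1Δ, and 0.414, 0.537 and 0.949 in libraries labelled CD4NIKΔ. Every CD4NIKΔ library and every CD4IKK1Δ library thus lay at or over the highest CD4cre value, and the highest ratio belonged to the library with the fewest T cell receptor counts. B2m was also set against Ptprc and against the Pan T score, and H2-K1 against H2-D1, in 9 exact two-sided permutation tests. Relative to Ptprc, B2m was higher by 0.78 on the log2 scale in libraries labelled CD4NIKΔ than in CD4cre libraries (exact permutation p = 0.2, adjusted 0.589) and the difference of CD4IKK1Δ to CD4cre libraries was 0.26 (exact permutation p = 0.554), or 0.021 without CD4IKK1Δ replicate 1 and 0.11 without CD4cre replicate 2. Relative to the Pan T score, B2m was higher by 1.01 in libraries labelled CD4NIKΔ than in CD4cre libraries, in all 3 libraries (exact permutation p = 0.1, adjusted 0.589), where 0.1 is the smallest p that 3 against 3 libraries allow, and the difference of CD4IKK1Δ to CD4cre libraries was 1.36 (exact permutation p = 0.339). The latter was 0.51 without CD4IKK1Δ replicate 1 and 0.12 without replicates 1 and 2, whose log2 ratios of 8.23 and 5.16 lay over the 3.02 to 4.12 of the other 3 libraries and the 3.15 to 3.74 of CD4cre libraries. The ratio of H2-K1 to H2-D1 CPM was 0.240 to 0.274 in CD4cre, 0.181 to 0.338 in CD4IKK1Δ and 0.183 to 0.246 in CD4NIKΔ libraries, and no pair of groups differed past the threshold (exact permutation p = 0.2 to 0.714). The smallest p for 3 against 5 libraries is 0.0179, and after adjustment over the 9 tests the smallest value was 0.589.

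**Figure D4:**
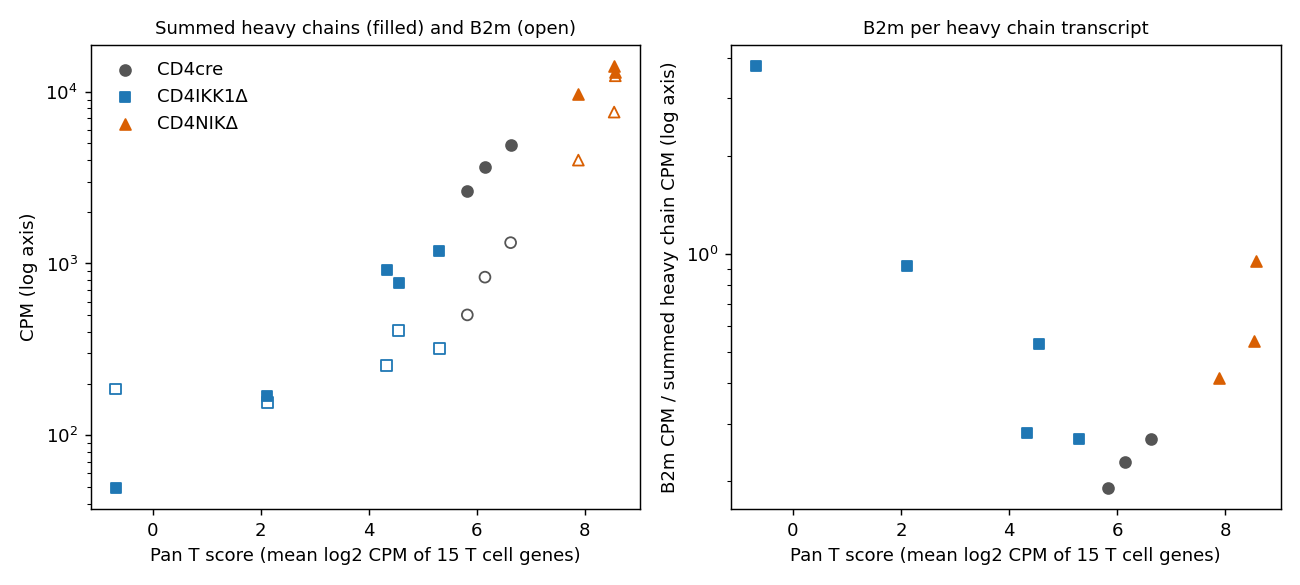
Left, summed heavy chain CPM (filled) and B2m CPM (open) on a log axis against the Pan T score of each of the 11 libraries. Right, the ratio of B2m to the summed heavy chains on a log axis, which is 3.78 in the library of the lowest score and 0.190 to 0.269 in CD4cre libraries.

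Over the 11 libraries, which share the processing and the large differences in T cell transcripts, the log2 CPM of the members was correlated with the Pan T score with r from 0.858 for B2m to 0.996 for H2-D1, and with Ptprc with r from 0.919 for H2-K1 to 0.980 for H2-M3 (B2m 0.964). The 45 pairs of members had r from 0.814 to 0.997. Outside the class I lists, the genes whose log2 CPM was most like the mean z-score of the members were Slc17a9, 4930523C07Rik, Il21r, Flt3l, Slfn2, Selplg, Parp14, Sting1, Il2rb and Tbx21, with r from 0.991 to 0.997. The 5 genes most like B2m were Pak2, Ppp2r5a, Lpar6, Rnaset2a and Sf3b4 (r from 0.988 to 0.993). These are descriptions over 11 libraries, without a test.

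The 23 genes of peptide loading and class I regulation were read from the same fits. In CD4NIKΔ against CD4cre libraries 18 of the 23 rose and none fell, beside 12.1% of all genes called higher, with a median log2 fold change of 1.87. Tapbp, which encodes tapasin, had 253 ± 30.2 CPM against 31.3 ± 8.47 CPM (SD, n = 3 each) and rose by 3.00 on the log2 scale (SE 0.24, FDR 0.0016). Psmb9, a subunit of the immunoproteasome, rose by 2.61 (SE 0.31, FDR 0.00321), and Pdia3, a chaperone of the loading complex, by 2.69 (SE 0.79, FDR 0.0446) at a low level of 3.38 CPM. Canx, Psmb10, Rfx5, Rfxap and Irf1 did not pass. In CD4IKK1Δ against CD4cre libraries 22 of the 23 were tested and none passed in edgeR's test, as was the case for 0% of all genes. Of them, 18 were lower in the mean, with a median of −1.13. DESeq2 on the same libraries called Tap2, Tapbpl, Rela, Nfkb1 and Erap1 lower (adjusted p-values from 0.000232 to 0.0442), beside 8.75% of all genes. In CD4IKK1Δ against CD4NIKΔ libraries 19 of 23 passed with lower values under the CD4IKK1Δ label, beside 22% of all genes, with a median of −3.50, led by Tap2, a subunit of the peptide transporter (−4.97, SE 0.56, FDR 0.000153), Irf1 (−4.40, SE 0.82, FDR 0.00158), the peptide-trimming enzyme gene Erap1 (−4.39, SE 0.57, FDR 0.000166) and Psmb9 (−4.33, SE 0.78, FDR 0.00183).

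Of 23 other class I-like genes, 18 were in the table and 8 to 10 passed the filter in a comparison. In CD4NIKΔ against CD4cre libraries 3 of 8 rose, beside 12.1% of all genes, which were H2-Q10 (2.90, SE 0.33, FDR 0.00289), Cd1d1, which presents lipids to natural killer T cells (1.96, SE 0.59, FDR 0.0486), and H2-Q5 (1.78, SE 0.39, FDR 0.0208). In CD4IKK1Δ against CD4cre libraries none of 8 passed in edgeR's test, as was the case for 0% of all genes, and all 8 had a lower mean. DESeq2 on the same libraries called Fcgrt lower (−1.44, adjusted p 0.0338), beside 8.75% of all genes. In CD4IKK1Δ against CD4NIKΔ libraries 6 of 10 passed with lower values under the CD4IKK1Δ label, beside 22% of all genes, led by H2-Q5 (−5.06), Cd1d1 (−4.80), H2-Q10 (−4.49) and H2-T10 (−3.09), with an FDR from 0.000137 to 0.0362. H2-Q5 and H2-T10 share stretches of 31 bases with H2-Q7 and H2-T22, so that part of their counts may belong to these members.

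The summed CPM of the 12 myeloid markers was 516 to 2143 in CD4cre, 109 to 289 in CD4IKK1Δ and 1038 to 1349 in CD4NIKΔ libraries, and Itgam was at 0 in every CD4cre library and Fcer1g in every library labelled CD4IKK1Δ. Ptprc had 124 to 246 CPM, 19.2 to 88.6 CPM and 882 to 1204 CPM in the same order. The 5 erythroid genes summed to 2078 to 2680, 532 to 1612 and 1177 to 8183 CPM, the 9 kidney tubule genes to 18.4 to 85.1, 3.51 to 9.15 and 16.0 to 103 CPM, the 5 endothelial genes to 17.9 to 21.7, 10.2 to 13.2 and 23.7 to 52.2 CPM, and the 5 B cell genes to 1.99 to 5.76, 0.547 to 5.54 and 3.59 to 24.4 CPM. The 5 CD8 and NK genes summed to 13.2 to 27.8, 0.323 to 7.90 and 82.6 to 147 CPM. Gzma alone had 126, 56.1 and 9.53 CPM in the libraries labelled CD4NIKΔ. In CD4NIKΔ against CD4cre it was the only 1 of 4 tested genes called higher, beside 12.1% of all genes. In CD4IKK1Δ against CD4NIKΔ 3 of 4 were called lower, beside 22% of all genes. The part of these cells in the class I differences was not tested.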

How the data were processed

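Bulk RNA sequencing was analysed from renal CD4+ T cells of 3 CD4cre, 5 CD4IKK1Δ and 3 CD4NIKΔ mice on day 2 after IRI, enriched with magnetic beads, sorted, and amplified with a SMARTer kit without molecular identifiers. The authors trimmed reads with Trimmomatic, assigned them with kallisto, and deposited estimated counts per gene symbol, without normalization (the kallisto version, the annotation and the use of strand are not given in the sources used here; the study names GRCm39 and the submitters' processing notes mm10). kallisto divides reads that fit several transcripts, so that 30.4% to 36.6% of the values per library were not whole within 0.001. They were rounded. The number of columns not mapped to a sample was 0, and none of 55 pairs of libraries were identical.

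After filterByExpr and TMM scaling, the robust quasi-likelihood test of edgeR (version 4.0.16, under R 4.3.3) was run, and p-values were adjusted after Benjamini and Hochberg over all genes tested (FDR), within the groups of each comparison with CD4cre and over all 11 libraries for CD4IKK1Δ against CD4NIKΔ. Standard errors were taken from the F statistic, and log2 CPM used a prior count of 2. On simulated counts in which 200 genes differed by 2 on the log2 scale, 42.5%, 46.5% and 42.5% of them were found by edgeR in CD4IKK1Δ against CD4cre, CD4NIKΔ against CD4cre and CD4IKK1Δ against CD4NIKΔ (15653, 15209 and 15759 genes, the last with only the 8 libraries of these groups), with 2, 9 and 2 false calls, and DESeq2 found 57.5%, 64.5% and 57% with 51, 60 and 62 false calls. The precision is limited by 3 to 5 libraries per group.

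The members, the marker lists (Pan T, Pan leukocyte, CD8 and NK, myeloid, B cell, endothelial, kidney tubule, neuronal, erythroid) and the lists of other class I-like genes and of class I loading and regulation were chosen with earlier results of these data known. Beside the members, at most 4 genes per list and comparison past the FDR with the largest log2 fold change were named, and the 10 and 5 genes most correlated with the members' mean z-score and with B2m. A gene that this rule names is not reported here. The zero genes of marker lists, Cd3g, Cd247, Itgam and Fcer1g, and the genes of the lists that did not pass were named after their values were seen. So were Gzma and the list genes called by DESeq2 alone. Alternatives were DESeq2 (1.42.0), other scalings, filters and fits, the replicate number as a block, the Pan T score as a covariate, a prior count of 0.5, and leaving out each library. Scaling to Pan T markers or Ptprc, leaving out 2 libraries together, and the second length of H2-K2 were added after seeing the data.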

Additional observations from a re-analysis of the deposited data

Results flagged for a closer look

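Replicate 1 labelled CD4IKK1Δ, the library with 41 T cell receptor counts, stood apart from the other 4 libraries of its group in 4 measures, in that its gap to the nearest of them was more than 0.71 of the range of the group. It had 0.194 CPM of H2-K2, a ratio of B2m to the summed heavy chains of 3.78, a ratio of B2m to H2-K1 of 99.3, and 4.20% of the summed heavy chain CPM from H2-Q6 and H2-Q7 together. Replicate 2 labelled CD4IKK1Δ, the library with 868 T cell receptor counts, stood apart in the share of H2-K2 among the heavy chains, which was 3.06%. This makes 5 of the 29 measures examined in that group, which are computed from the same genes, and chance alone marks about 1 in 20.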

How the results depend on the processing

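Leaving aside the alternatives added after seeing the data, the log2 fold changes of the members kept their direction in 189 of 189 values for CD4IKK1Δ against CD4cre, and in all but 5 of 170 for CD4NIKΔ against CD4cre and all but 2 of 219 for CD4IKK1Δ against CD4NIKΔ, which were all from the Pan T score as a covariate. In CD4IKK1Δ against CD4cre the number of members called moved from 0 to 5 with DESeq2 on the same libraries, 9 with DESeq2 on all 11 libraries, 2 with at least 10 counts in every library, 3 with all 11 libraries in edgeR's fit and 3 without both CD4IKK1Δ libraries of fewest T cell receptor counts (0 to 1 when each library was left out). In CD4NIKΔ against CD4cre it moved from 9 to 5 with DESeq2 on all 11 libraries, 3 with all 11 libraries in edgeR's fit, 0 with the covariate and 1 with scaling to Pan T markers or Ptprc (7 to 10 when each library was left out). In CD4IKK1Δ against CD4NIKΔ it moved from 10 to 3 with the covariate and 0 with either scaling (10 without each library). The cause of these moves was not tested. In the main fits, 0% of all genes passed in CD4IKK1Δ against CD4cre. In CD4NIKΔ against CD4cre 12.1% were called higher, and in CD4IKK1Δ against CD4NIKΔ 22% were called lower. In CD4IKK1Δ against CD4cre, the median of the members was −2.30, and −0.86 with the covariate and −3.33 with the replicate block. Under the covariate, CD4NIKΔ against CD4cre turned for H2-K1 (−0.88), H2-D1 (−0.032), H2-Q4 (−0.74), H2-Q6 (−0.30) and B2m (−0.68), and CD4IKK1Δ against CD4NIKΔ for H2-K1 (0.68) and H2-Q6 (0.074). The covariate did not overlap between the groups of any comparison and cannot be told apart from the genotype.

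With scaling to Pan T markers the median over all genes became 5.25, −2.24 and 7.45 in CD4IKK1Δ against CD4cre, CD4NIKΔ against CD4cre and CD4IKK1Δ against CD4NIKΔ, and with scaling to Ptprc 2.20, −2.42 and 4.65. Scaled to Pan T markers, the direction turned in CD4IKK1Δ against CD4cre for H2-Q4 (1.69), H2-T22 (2.47), H2-T23 (2.30), H2-M3 (1.94) and B2m (3.26), in CD4NIKΔ against CD4cre for H2-K1 (−0.68), H2-D1 (−0.40), H2-K2 (−0.30), H2-Q4 (−1.19), H2-Q6 (−0.66), H2-Q7 (−0.43), H2-T22 (−0.72) and H2-T23 (−0.31), and in CD4IKK1Δ against CD4NIKΔ for H2-K1 (0.17), H2-Q4 (2.87), H2-Q7 (0.33), H2-T22 (3.19), H2-T23 (2.61), H2-M3 (1.81) and B2m (2.28). Scaled to Ptprc, it turned in CD4IKK1Δ against CD4cre for H2-T23 (0.064) and B2m (0.34), in CD4NIKΔ against CD4cre for H2-K1 (−0.80), H2-D1 (−0.54), H2-K2 (−0.41), H2-Q4 (−1.31), H2-Q6 (−0.79), H2-Q7 (−0.53), H2-T22 (−0.90), H2-T23 (−0.46) and H2-M3 (−0.0098), and in CD4IKK1Δ against CD4NIKΔ for H2-Q4 (1.05), H2-T22 (0.88) and H2-T23 (0.52). Without both CD4IKK1Δ libraries of fewest T cell receptor counts, B2m relative to Ptprc turned to −0.096 in CD4IKK1Δ against CD4cre, B2m relative to the Pan T score to −0.89 in CD4IKK1Δ against CD4NIKΔ, and H2-K1 relative to H2-D1 to 0.025 in CD4IKK1Δ against CD4cre. The last 2 ranged from −0.50 to 0.80 and from −0.18 to 0.034 when each library was left out. The other ratios kept their direction, and none passed the threshold of the exact permutation test.

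With the replicate number as a replicate block, 0, 8 and 10 members were called in CD4IKK1Δ against CD4cre, CD4NIKΔ against CD4cre and CD4IKK1Δ against CD4NIKΔ, among 3, 1187 and 5749 genes called in all, and H2-K1 was the member lost (FDR 0.0562 in edgeR's test). Deviations of same-numbered libraries from their group means had correlations of −0.089 to 0.077 across 16546 genes, so that no pairing by number was seen. With few libraries that differ widely in T cell transcripts, these correlations cannot decide whether a day or batch was shared. With at least 10 counts in every library, H2-K2 could not be tested in the comparisons with CD4IKK1Δ. Levels near 3 counts, as of H2-K2 in CD4IKK1Δ replicate 1, are limited by depth.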
